A study of Mus musculus with 6 samples.

Results

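The Serpina genes of the liver code for secreted antiproteases and hormone carriers of the serpin clade A family. The genes examined were the 5 Serpina1 paralogs (Serpina1a, Serpina1b, Serpina1c, Serpina1d and Serpina1e), 3 Serpina3 genes (Serpina3k, Serpina3m and Serpina3n) and the hormone carriers Serpina6 and Serpina7. These 10 genes were chosen by name, from the 23284 genes listed in the RNA-seq count files of this study. The livers came from C57BL/6 mice aged 8 weeks that were fasted overnight and then, still fasting, received vehicle or FGF19 at 1 mg/kg for 6 h. FGF19 is a gut hormone of humans whose mouse counterpart is FGF15, and it was given as a treatment to mice of this strain, with 3 Vehicle and 3 FGF19 mice. The comparison of these groups asked how FGF19 altered hepatic mRNA levels. The labels give no batch or date of sequencing.

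Serpins are inhibitors that offer a protease an exposed bait segment, the reactive centre loop. When the protease cuts this loop, the serpin changes shape and traps the enzyme in an inactive complex, so each molecule is used once and the residues of the loop set which protease is caught. Hepatocytes secrete clade A serpins into plasma in large amounts, and several of these proteins are known as acute phase proteins. Serpina1 encodes alpha-1-antitrypsin, the main plasma inhibitor of neutrophil elastase, and humans have a single functional gene of this kind where the mouse has several. Serpina6 (corticosteroid-binding globulin) and Serpina7 (thyroxine-binding globulin) kept the serpin fold but carry hormones and are not known as protease inhibitors.

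The paralogs were nearly identical in sequence, and this set how well their reads could be told apart. The coding sequences of the 5 Serpina1 paralogs, of 1242 bases each, were between 96.3% and 98.5% identical in pairs. Serpina1a and Serpina1c were the closest pair, with 19 differing bases, and 86 positions varied over the 5 genes. The stretch of 60 bases with the most variable positions had 18 of them, against a median of 3 over all such stretches, and it lies in the last exon, where the reactive centre loop is encoded. It is shown because it is where the paralogs differ most. The sequences are from the mm9 genome, read on the coding strand, with capitals at the positions that differ among the 5 genes.
Serpina1a: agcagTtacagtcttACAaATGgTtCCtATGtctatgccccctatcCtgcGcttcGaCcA
Serpina1b: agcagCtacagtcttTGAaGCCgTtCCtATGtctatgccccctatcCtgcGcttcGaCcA
Serpina1c: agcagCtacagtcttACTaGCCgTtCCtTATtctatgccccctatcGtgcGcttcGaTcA
Serpina1d: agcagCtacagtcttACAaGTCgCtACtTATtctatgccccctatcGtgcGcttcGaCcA
Serpina1e: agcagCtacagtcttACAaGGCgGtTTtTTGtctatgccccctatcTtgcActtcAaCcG
On the minus strand of mm9, these stretches lie at chr12:105091967-105092026 for Serpina1a, chr12:104966534-104966593 for Serpina1b, chr12:105133304-105133363 for Serpina1c, chr12:105001972-105002031 for Serpina1d and chr12:105185310-105185369 for Serpina1e.

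The 3 Serpina3 genes were less alike. Their coding sequences were 91.6% identical between Serpina3k and Serpina3m, 85.2% between Serpina3m and Serpina3n and 82.7% between Serpina3k and Serpina3n. Of 1251 positions aligned without gaps, 245 varied, and the most variable stretch of 60 bases again lay in the last exon, with 26 variable positions against a median of 7. The 3 stretches are shown in the same way, because the first bases are common to all 3 genes while the bases that follow, within the loop, are not.
Serpina3k: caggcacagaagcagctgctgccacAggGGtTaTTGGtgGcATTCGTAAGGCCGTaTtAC
Serpina3m: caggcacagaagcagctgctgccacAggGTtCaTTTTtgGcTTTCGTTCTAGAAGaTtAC
Serpina3n: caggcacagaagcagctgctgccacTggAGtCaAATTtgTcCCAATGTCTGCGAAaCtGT
They lie on the plus strand of mm9 at chr12:105583477-105583536 for Serpina3k, chr12:105631977-105632036 for Serpina3m and chr12:105651656-105651715 for Serpina3n.

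Reads with more than one alignment had not been counted, so identical stretches of these genes gave no counts. Of the windows of 100 bases, the read length, that lie within 1 exon, only 35.5% were found once in the mm9 genome for Serpina1c and 42.0% for Serpina1a. The share was 60.4% for Serpina1d, 64% for Serpina1b and 76.7% for Serpina1e. It was 95.3% for both Serpina3k and Serpina3m, and 100% for Serpina3n, Serpina6 and Serpina7. The counts of the Serpina1 paralogs therefore rest on the parts of each gene that differ, and their levels are uncertain, while the Serpina3n, Serpina6 and Serpina7 counts do not have this limit. None of the 10 genes shared exon positions with another annotated gene.

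The libraries held between 18994654 and 22920056 counts, which include reads of both mates of a pair, and a count of 3, the most that a count of 0 allows, was worth between 0.136 and 0.159 CPM. CPM is the count of a gene as a proportion of its library's total, with the total scaled by edgeR's TMM factors. The 10 Serpina genes together took between 3.57% and 4.03% of all counts in Vehicle and between 3.46% and 4.57% in FGF19 mice. Library pairs within a group differed by more than sampling noise, with a chi-square per degree of freedom between 8.68 and 41.8, and pairs from different groups by between 72.5 and 106. FGF19 replicate 3 stood apart from the other FGF19 mice, at 31.5 and 41.8 against 8.68 between those 2. It was the highest FGF19 library for 8 of the 10 genes and the lowest for Serpina7, so the values without it are given where it bears on a result. Hepatocyte markers were abundant in each library, with albumin (Alb) between 63497 and 70411 CPM. In whole liver, fewer cells of a type and less RNA per cell cannot be told apart.

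In the livers of mice treated with FGF19, Serpina3n, Serpina3m and Serpina7 mRNA levels were higher than in vehicle-treated mice, by 5.30-fold, 1.89-fold and 9.88-fold. The 5 Serpina1 paralogs and Serpina3k, the genes with the highest levels of the 10 in Vehicle mice, did not pass the test. The mean Serpina6 level was lower with FGF19 and also did not pass. The quasi-likelihood test of edgeR was applied to the 12559 genes that passed the filter on low counts, which included all 10, and a gene was called at a Benjamini-Hochberg adjusted p under 0.05. Thus 3 of 10 Serpina genes were called higher and 0 of 10 lower, where 4.56% of all genes tested were called higher and 2.84% lower. At an unadjusted p under 0.05, Serpina6 was the only gene of the 10 that was lower, and DESeq2 called it as lower. For the 3 called genes every FGF19 mouse was above every Vehicle mouse, as for 14.5% of all genes tested, and none of the 10 had every FGF19 mouse below, as for 13.8%.

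**Figure D1:**
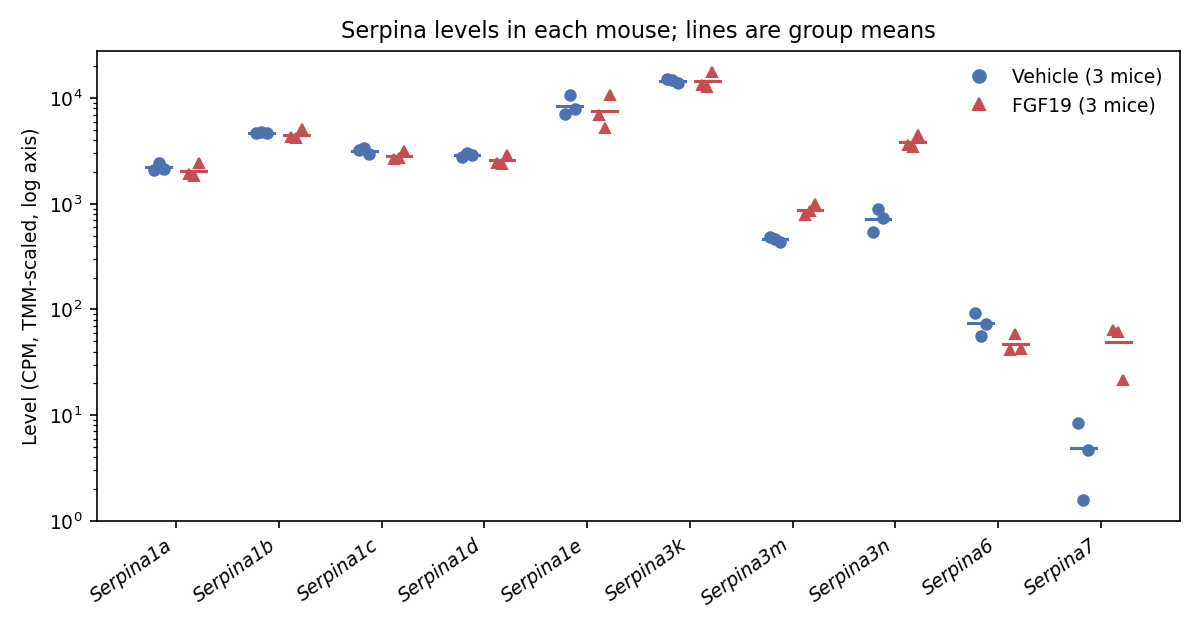
Level of each Serpina gene in each mouse, in TMM-scaled CPM on a log axis. Circles are Vehicle mice, triangles FGF19 mice and horizontal lines the means of 3 mice; the FGF19 points lie above all Vehicle points for Serpina3m, Serpina3n and Serpina7, and overlap them for the other 7 genes.

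**Figure D2:**
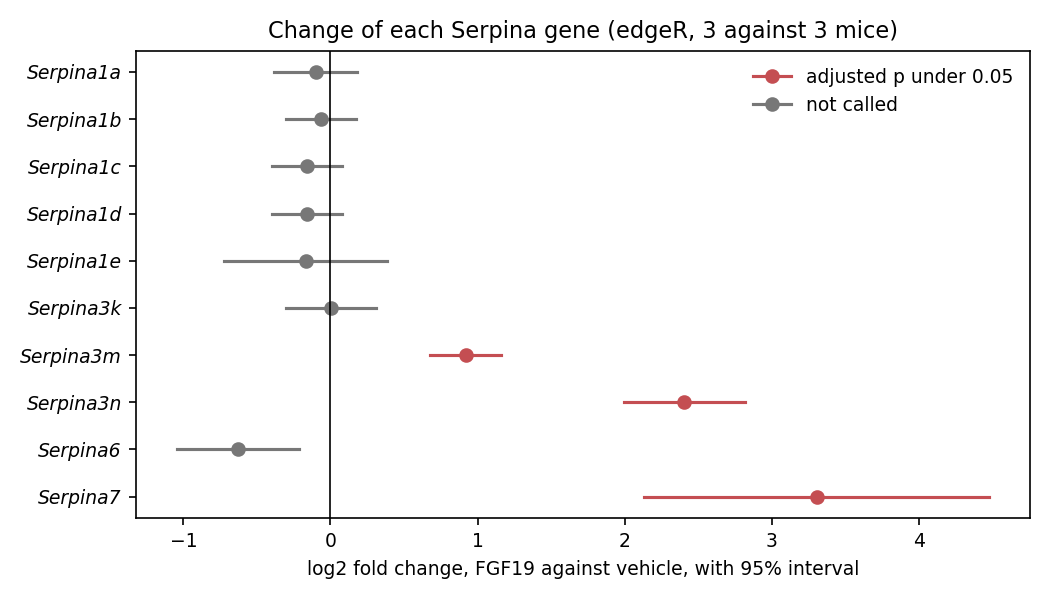
Log2 fold change of each Serpina gene, FGF19 against Vehicle, with its 95% confidence interval from edgeR (3 mice per group). The intervals of Serpina3m, Serpina3n and Serpina7 (red, adjusted p under 0.05) lie above 0, those of the 5 Serpina1 paralogs and Serpina3k span 0, and that of Serpina6 lies below 0 with an adjusted p of 0.0741.

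Serpina3n, a mouse counterpart of alpha-1-antichymotrypsin, inhibits chymotrypsin-like and leukocyte proteases and is known as an acute phase gene. It lies on the plus strand at chr12:105644918-105652539 of mm9. Its level was 543, 896 and 738 CPM in the Vehicle mice and 3603, 3475 and 4469 CPM in the FGF19 mice. The lowest FGF19 mouse was thus well above the highest Vehicle mouse. The means were 726 ± 177 and 3849 ± 541 CPM (SD, n = 3 each), a log2 fold change of 2.41 ± 0.18 (SE) with a 95% interval from 1.99 to 2.82 and an adjusted p of 0.000161 by edgeR. Without FGF19 replicate 3 the log2 fold change was 2.29 (edgeR adjusted p = 0.000237).

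Serpina3m, a less studied neighbour of Serpina3k, lies on the plus strand at chr12:105625374-105632467. It gave 486, 465 and 432 CPM in Vehicle mice and 778, 849 and 988 CPM in FGF19 mice. The 3 Vehicle values were close together and the FGF19 values were all higher. The means of 461 ± 27.3 and 872 ± 107 CPM (SD, n = 3 each) gave a log2 fold change of 0.92 ± 0.11 (SE), with an interval from 0.68 to 1.16 and an edgeR adjusted p of 0.00136. Without FGF19 replicate 3 it was 0.82 (edgeR adjusted p = 0.000825).

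Serpina3k, an abundant plasma antiprotease also called contrapsin, lies between Serpina3j and Serpina3m, on the plus strand at chr12:105576696-105583949. The Vehicle mice had 15024, 14802 and 13989 CPM and the FGF19 mice 13427, 12881 and 17629 CPM. The first 2 FGF19 mice were below all Vehicle mice and the other was above them, so the groups overlapped. The log2 fold change was 0.00 ± 0.14 (SE), with an interval from -0.30 to 0.31 and an edgeR adjusted p of 0.990. Its sign turned in several alternatives, and without FGF19 replicate 3 it was -0.15 (edgeR adjusted p = 0.284).

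With Serpina3n higher and Serpina3k not called, the make-up of the Serpina3 counts differed between the groups. Serpina3n took 3.38%, 5.55% and 4.87% of the summed counts of the 3 genes in Vehicle mice and 20.2%, 20.2% and 19.4% in FGF19 mice. This was a mean of 4.60 ± 1.10% and of 19.9 ± 0.495% (SD, n = 3 each), or 15.3 percentage points more. The Serpina3k share went from 92.5 ± 1.02% to 75.5 ± 0.759%, and the Serpina3m share from 2.92 ± 0.0954% to 4.53 ± 0.356%. For each of these 3 shares the groups did not overlap, and the exact two-sided permutation p was 0.1, the smallest that 3 against 3 mice can give, or 0.267 after adjustment over the 8 shares compared in the Serpina1 and Serpina3 groups. Summed as 1 feature, the 3 Serpina3 genes had 16054, 16163 and 15159 CPM in Vehicle and 17808, 17205 and 23086 CPM in FGF19 mice. The log2 fold change of the sum was 0.29 ± 0.13 (SE), with an interval from -0.00 to 0.59 and an edgeR adjusted p of 0.218, and it was 0.15 without FGF19 replicate 3.

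**Figure D3:**
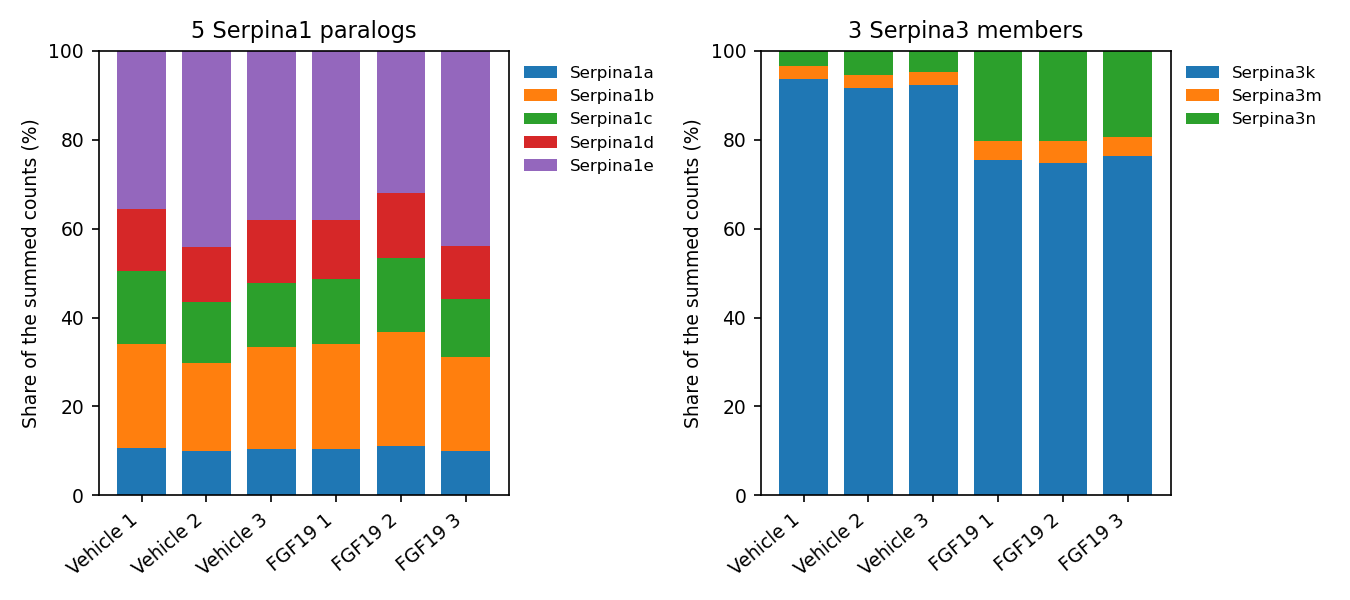
Share of each gene in the summed counts of its group, in percent, for each mouse: the 5 Serpina1 paralogs (left) and Serpina3k, Serpina3m and Serpina3n (right). Serpina3n takes between 3.38% and 5.55% in Vehicle and between 19.4% and 20.2% in FGF19 mice, while the Serpina1 shares of the 2 groups overlap.

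The Serpina1 paralogs lie side by side on the minus strand. Serpina1e, at chr12:105185142-105195107, had 7014, 10720 and 7811 CPM in Vehicle and 6913, 5208 and 10611 CPM in FGF19 mice. It spread most among mice, with a coefficient of variation of 22.9% in Vehicle and 36.5% in FGF19 mice, where the other 4 paralogs had between 1.97% and 7.95% and between 9.86% and 16.1%. Its log2 fold change was -0.17 ± 0.25 (SE), with an interval from -0.72 to 0.39 and an edgeR adjusted p of 0.743. The sign turned without Vehicle replicate 2 (0.0311) and without FGF19 replicate 2 (0.0501).

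Serpina1b, at chr12:104966366-104976399, had the steadiest Vehicle level of the 10 genes, with 4651, 4821 and 4671 CPM. The FGF19 mice had 4283, 4166 and 5089 CPM, on both sides of the Vehicle values. The log2 fold change was -0.06 ± 0.11 (SE), with an interval from -0.30 to 0.18 and an edgeR adjusted p of 0.781.

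Serpina1c, at chr12:105133136-105143160, had 3220, 3351 and 2974 CPM in Vehicle and 2653, 2719 and 3169 CPM in FGF19 mice. Serpina1d, at chr12:105001797-105011843, had 2772, 2998 and 2871 CPM and 2445, 2380 and 2904 CPM. In both genes FGF19 replicates 1 and 2 were below all Vehicle mice and replicate 3 was not. Each had a log2 fold change of -0.16 ± 0.11 (SE), with an interval from -0.40 to 0.08 and edgeR adjusted p of 0.416 for Serpina1c and 0.415 for Serpina1d.

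Serpina1a, at chr12:105091505-105101829, had 2085, 2413 and 2139 CPM in Vehicle and 1917, 1829 and 2442 CPM in FGF19 mice. The groups overlapped, and the log2 fold change was -0.10 ± 0.13 (SE), with an interval from -0.39 to 0.18 and an edgeR adjusted p of 0.693. Vehicle replicate 2 was the highest Vehicle mouse and FGF19 replicate 3 the highest FGF19 mouse for all 5 Serpina1 paralogs. Without FGF19 replicate 3 the log2 fold changes were -0.24 for Serpina1a, -0.15 for Serpina1b, -0.24 for Serpina1c, -0.25 for Serpina1d and -0.49 for Serpina1e, and none was called (edgeR adjusted p = 0.116, 0.215, 0.0946, 0.0658 and 0.125). Without FGF19 replicate 2 they were nearer 0 for Serpina1a and Serpina1b, at -0.0134 and -0.000468 (edgeR adjusted p = 0.978 and 0.999).

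Because reads of near-identical genes can be lost or split, the 5 Serpina1 paralogs were also summed to 1 feature. The sum was 19742, 24302 and 20466 CPM in Vehicle and 18211, 16302 and 24215 CPM in FGF19 mice. The means of 21503 ± 2451 and 19576 ± 4129 CPM (SD, n = 3 each) gave a log2 fold change of -0.14 ± 0.16 (SE), with an interval from -0.49 to 0.22 and an edgeR adjusted p of 0.672. With 1 mouse left out it went from -0.31 without FGF19 replicate 3 to -0.0114 without FGF19 replicate 2 (edgeR adjusted p = 0.110 and 0.984), and it was -0.04 without Vehicle replicate 2. The shares of the paralogs in the sum overlapped between the groups. Serpina1e took 39.3 ± 4.40% and 37.9 ± 5.94%, Serpina1b 22.1 ± 1.97% and 23.4 ± 2.27%, Serpina1c 14.9 ± 1.30% and 14.8 ± 1.81%, Serpina1d 13.5 ± 0.981% and 13.3 ± 1.31% and Serpina1a 10.3 ± 0.338% and 10.6 ± 0.571% (SD, n = 3 mice; exact permutation p between 0.5 and 1).

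Serpina6 encodes corticosteroid-binding globulin, which carries glucocorticoids in plasma. It lies on the minus strand at chr12:104884842-104895281. It had 91.6, 56.3 and 73.0 CPM in Vehicle and 41.7, 58.5 and 42.7 CPM in FGF19 mice. FGF19 replicate 2 was above Vehicle replicate 2, so the groups overlapped, while the other FGF19 mice were below all Vehicle mice. The means were 73.6 ± 17.7 and 47.6 ± 9.41 CPM (SD, n = 3 each), a log2 fold change of -0.63 ± 0.18 (SE) with an interval from -1.04 to -0.22. With edgeR's quasi-likelihood test the p was 0.00704 and the adjusted p 0.0741, so Serpina6 passed the p under 0.01 of the study's methods and not the adjusted threshold. It was called lower by DESeq2 (adjusted p = 0.0119) and without Vehicle replicate 2 (edgeR adjusted p = 0.0319), and over all 14 other settings the adjusted p was between 0.0119 and 0.226.

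Serpina7 encodes thyroxine-binding globulin, a plasma carrier of thyroid hormone. It is the only one of the 10 genes that is not on chromosome 12, and lies on the minus strand at chrX:135613789-135619775. The reads counted were 175, 30 and 95 in Vehicle and 1365, 1340 and 472 in FGF19 mice, or 8.34, 1.59 and 4.71 against 63.5, 61.5 and 21.4 CPM. The lowest FGF19 mouse, replicate 3, was above the highest Vehicle mouse, and the spread within each group was the widest of the 10 genes relative to its mean. The means were 4.88 ± 3.38 and 48.8 ± 23.8 CPM (SD, n = 3 each), a log2 fold change of 3.30 ± 0.52 (SE) with an interval from 2.13 to 4.48 and an edgeR adjusted p of 0.00605. Leaving out 1 mouse at a time, the log2 fold change went from 2.90 without Vehicle replicate 2 to 3.94 without Vehicle replicate 1, and it was 3.66 without FGF19 replicate 3 (edgeR adjusted p = 0.0114, 0.00956 and 0.00119). The highest edgeR adjusted p was 0.0416, without Vehicle replicate 3.

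Levels of different genes were compared per kb of exon length. In Vehicle mice the order was Serpina3k (8841 CPM per kb), Serpina1e (6201), Serpina1b (3308), Serpina1c (2234), Serpina1d (1997), Serpina1a (1141), Serpina3n (348), Serpina3m (278), Serpina6 (50.4) and Serpina7 (2.07). Among neighbours in this order, only the values of Serpina3n and Serpina3m overlapped between mice. In FGF19 mice the order of the genes was the same except that Serpina3n, at 1846 CPM per kb, stood between Serpina1c (1999) and Serpina1d (1787) and overlapped both. Serpina7 was at 20.7 CPM per kb in FGF19 mice and still the lowest of the 10, next to Serpina6 at 32.6. Per kb of uniquely alignable positions, the mean of Serpina1c moved above that of Serpina1b in both groups (9584 and 7870 CPM in Vehicle mice, and 8575 and 7534 CPM in FGF19 mice, where the values overlapped). On this scale Serpina3k also overlapped Serpina1e, and Serpina1e overlapped Serpina1c, in both groups, and Serpina3n in FGF19 mice (2404 CPM) stood below all 5 Serpina1 paralogs, the lowest of which was Serpina1a (3650 CPM), with no overlap. The order of Serpina3k and the Serpina1 paralogs and the place of Serpina3n among them therefore depend on how positions that cannot be told apart are treated.

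The promoters were read from RefSeq sequences of build GRCm38.p6, as 250 bases before to 50 after the start of the gene, for the 7 of 10 genes with an entry, with 2 overlapping windows for Serpina7. Serpina3k, Serpina3m and Serpina6 had none. Both strands were searched for GTTAAT (a core of the HNF1 motif), TTGCNNAA (C/EBP), TTCNNNGAA (STAT) and ACANNNTGT (glucocorticoid receptor). These matched 7.10%, 10.8%, 8.30% and 6.85% of the 32851 promoters of the same length. The promoters of Serpina3n and Serpina7, which were called higher, and of Serpina1b, the Serpina1 paralog with the lowest spread among Vehicle mice, are shown 5′ to 3′ on the strand of the gene, with the matches in capitals.
Serpina3n: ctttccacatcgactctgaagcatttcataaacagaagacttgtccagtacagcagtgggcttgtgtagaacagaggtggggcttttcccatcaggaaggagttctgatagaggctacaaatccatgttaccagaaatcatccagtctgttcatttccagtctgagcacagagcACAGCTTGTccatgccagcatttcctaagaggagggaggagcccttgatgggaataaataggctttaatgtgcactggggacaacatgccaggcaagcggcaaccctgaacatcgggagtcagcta
Serpina7: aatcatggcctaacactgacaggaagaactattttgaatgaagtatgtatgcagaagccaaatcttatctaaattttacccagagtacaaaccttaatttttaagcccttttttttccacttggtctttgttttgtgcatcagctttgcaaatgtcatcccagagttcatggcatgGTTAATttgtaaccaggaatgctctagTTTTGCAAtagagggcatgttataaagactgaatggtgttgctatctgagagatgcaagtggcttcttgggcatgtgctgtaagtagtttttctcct
Serpina1b: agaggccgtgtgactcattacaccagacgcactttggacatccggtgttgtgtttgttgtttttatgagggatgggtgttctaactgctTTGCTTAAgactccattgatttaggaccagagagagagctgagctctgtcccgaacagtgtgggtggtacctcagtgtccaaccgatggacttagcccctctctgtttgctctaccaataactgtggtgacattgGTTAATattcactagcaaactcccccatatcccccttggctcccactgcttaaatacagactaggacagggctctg
They lie at chr12:104406458-104406757 on the plus strand for Serpina3n, and on the minus strand at chrX:139085170-139085469 for Serpina7 and chr12:103738140-103738439 for Serpina1b. The Serpina3n window had 1 match, to the glucocorticoid receptor letters, beginning at position -76 relative to the start. The Serpina7 window had GTTAAT at position -74 and a C/EBP match at -47, and the Serpina1b window had GTTAAT at -26 and a C/EBP match at -161. GTTAAT was present in all 5 Serpina1 promoters, beginning between -78 and -16, and in Serpina7, but not in Serpina3n. The STAT letters were in none of the 7 promoters, and the glucocorticoid receptor letters were otherwise only in Serpina1a. A match of letters is a description of the sequence and does not show that a factor binds there.

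Apart from Serpina7, the 10 genes lie in a cluster of 768 kb at chr12:104884842-105652539 of mm9 that holds 23 genes, each of them a Serpina gene. Of these 23, 15 were tested and 3 were called higher, and 5 had at most 3 counts in every library. The called genes, Serpina3g, Serpina3m and Serpina3n, were all in the Serpina3 end of the cluster. The ends of the cluster were set by the genes examined, so Serpina genes outside them are not in this count. Serpina10, which was called higher and is described below, is one of those. Serpina3g, an intracellular protease inhibitor, had 3.62, 5.35 and 5.41 CPM in Vehicle and 9.72, 16.7 and 7.56 CPM in FGF19 mice (log2 fold change 1.24 ± 0.29 SE, edgeR adjusted p = 0.0325). Its call was lost when any mouse other than FGF19 replicate 3 was left out (edgeR adjusted p up to 0.109 over all settings), and it begins at the same annotated position as Serpina3f, so the counts of these genes are uncertain. Serpina3c and Serpina3f had log2 fold changes of 2.21 ± 0.79 and 0.95 ± 0.35 (SE) and were not called (edgeR adjusted p = 0.128 and 0.140).

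**Figure D4:**
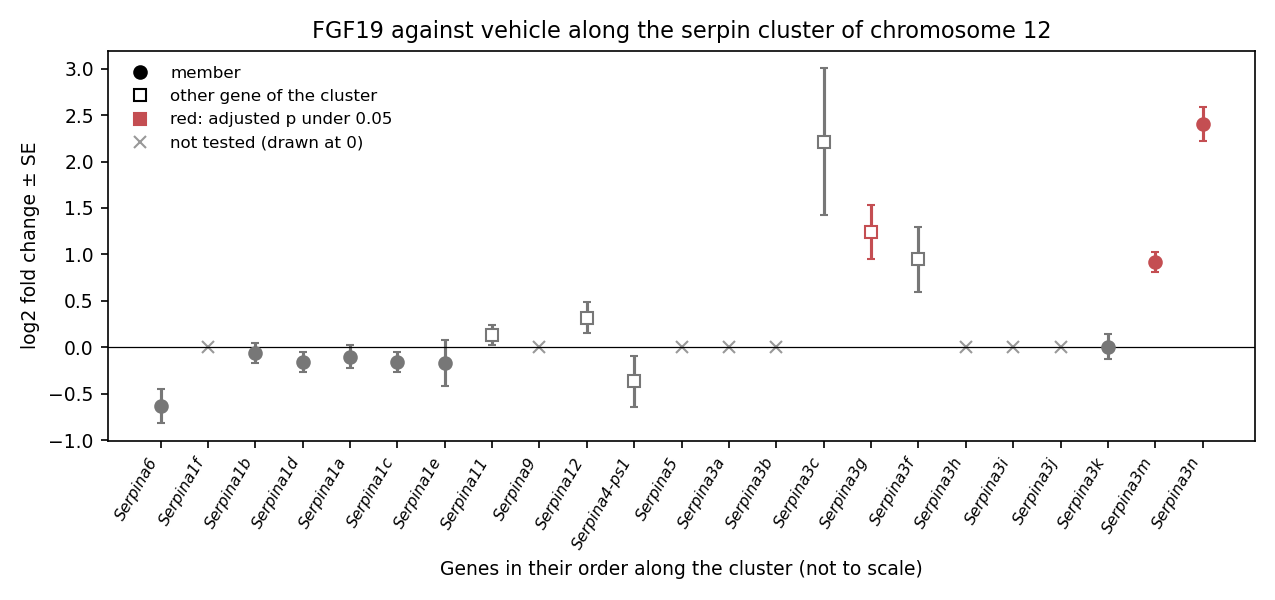
Log2 fold change ± SE (edgeR, FGF19 against Vehicle, 3 mice each) for the 23 genes of the serpin cluster in their order along chromosome 12, not to scale. Filled circles are the 9 genes described by name above, open squares the other tested genes, red marks an adjusted p under 0.05 and crosses drawn at 0 are genes not tested; the red points, Serpina3g, Serpina3m and Serpina3n, lie at the right.

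Among 15 other clade A serpins, most of them in this cluster, 7 were tested, with 2 called higher, 0 lower and a median log2 fold change of 0.95, beside -0.00 over all genes tested. The median was 0.43 without FGF19 replicate 2, and 1 gene was called higher when any mouse other than FGF19 replicate 3 was left out. Over all genes tested, 4.56% were called higher and 2.84% lower, the shares to set beside the counts of this and the later lists. The called genes were Serpina3g and Serpina10. Serpina10 encodes the protein Z-dependent protease inhibitor of coagulation factor Xa. It had 114, 112 and 108 CPM in Vehicle and 242, 213 and 251 CPM in FGF19 mice, with no overlap and a log2 fold change of 1.08 ± 0.09 (SE, edgeR adjusted p = 0.000228). Of 38 serpins of other clades, 13 were tested, with 1 called higher, 2 lower and a median of -0.10. With 1 mouse left out the median was between -0.19 and 0.12, and it was positive without Vehicle replicate 2. Serpinb1a, an intracellular inhibitor of neutrophil proteases, fell from 7.09 ± 2.09 to 2.45 ± 0.215 CPM (SD, n = 3 each; log2 fold change -1.53, edgeR adjusted p = 0.00497). Serpine2, an inhibitor of thrombin and plasminogen activators, was also called lower, at -0.78 (edgeR adjusted p = 0.0459), and this call was lost in 9 of 14 other settings, including each mouse left out, where edgeR adjusted p rose to as much as 0.171.

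Other plasma protease inhibitors included genes that were called with the Serpina3 genes. Of 22 listed, 21 were tested, with 4 called higher, 0 lower and a median log2 fold change of 0.02. Itih4, a heavy chain of the inter-alpha-trypsin inhibitor family, had 1153, 1177 and 1110 CPM in Vehicle and 3363, 3573 and 3550 CPM in FGF19 mice. This was a log2 fold change of 1.61 ± 0.09 (SE, edgeR adjusted p = 1.52e-05). Itih3, of the same family, had a log2 fold change of 0.76 (edgeR adjusted p = 0.00417). The other two, A2m and Timp1, were named after their values were seen, since both were near the detection limit, at 0.148 ± 0.0423 and 0.0519 ± 0.0530 CPM in Vehicle and 1.78 ± 1.38 and 0.749 ± 0.113 CPM in FGF19 mice (SD, n = 3 each; edgeR adjusted p = 0.0193 and 0.00782). With 1 mouse left out, between 3 and 5 genes were called higher and between 0 and 1 lower, and the median was between -0.03 and 0.07.

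The proteases that these serpins meet were also measured at the mRNA level in liver. Of 25 listed, 19 were tested, with 1 called higher, 1 lower and a median of -0.08. Over all genes tested, 4.56% were called higher and 2.84% lower. F11, coagulation factor XI, rose by 0.57 on the log2 scale (edgeR adjusted p = 0.00933). Tmprss6, a hepatocyte membrane protease, fell by 0.35 (edgeR adjusted p = 0.0302), a call that was lost without any one mouse other than FGF19 replicate 3 and with the replicate number as a block (edgeR adjusted p up to 0.138), and without single mice between 0 and 5 genes of the list were called lower. Neutrophil elastase (Elane), the main target of alpha-1-antitrypsin, was not tested, with 4, 4 and 3 counts in Vehicle and 9, 4 and 7 in FGF19 mice. It is made in bone marrow, so liver mRNA does not measure it.

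For Serpina6 and Serpina7, the genes of hormone carriage and hormone handling were examined. Of 18 genes of hormone carriers and glucocorticoid handling, 15 were tested, with 0 called higher, 2 lower and a median of -0.14. Akr1d1 and Srd5a1, the 5-beta and 5-alpha reductases that inactivate steroids, fell by 1.00 and 0.59 on the log2 scale (edgeR adjusted p = 0.00161 and 0.00937). Akr1d1 had 176, 155 and 166 CPM in Vehicle and 86.9, 93.4 and 68.0 CPM in FGF19 mice. The other hormone carriers Alb and Ttr had log2 fold changes of -0.06 and -0.22 (edgeR adjusted p = 0.789 and 0.289), and the glucocorticoid receptor Nr3c1 one of -0.14 (edgeR adjusted p = 0.604), so none of these was called. Of 15 names of thyroid hormone genes, 14 were among the genes listed, since Spot14 is another name of Thrsp. Of these, 11 were tested, with 0 called higher, 1 lower and a median of -0.14. Slco1b2, a hepatic uptake transporter, was that gene, at -0.54 (edgeR adjusted p = 0.0453), and it was called in 7 of 14 other settings, with edgeR adjusted p up to 0.165, and lost when any mouse other than FGF19 replicate 3 was left out. DESeq2 called 3 genes of this list lower. With 1 mouse left out, between 0 and 1 were called in each direction and the median was between -0.16 and -0.05.

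Secreted serpins fold and are checked in the endoplasmic reticulum, and genes of this route were measured beside them. Of 27 genes of folding, export and degradation, all were tested, with 14 called higher, 0 lower and a median log2 fold change of 0.45. Over all genes tested, 4.56% were called higher and 2.84% lower. The list was chosen with earlier results of these data known, so its count is a description and not a test. Derl3, which takes part in the removal of misfolded proteins, had 1.33, 2.97 and 0.943 CPM in Vehicle and 54.6, 35.4 and 26.7 CPM in FGF19 mice (log2 fold change 4.49 ± 0.38 SE, edgeR adjusted p = 0.000238). Hspa5, the main chaperone of the endoplasmic reticulum, had 681, 734 and 580 CPM in Vehicle and 2351, 2141 and 1409 CPM in FGF19 mice (log2 fold change 1.56 ± 0.18 SE, edgeR adjusted p = 0.00125). Syvn1, a ubiquitin ligase of the removal route, and Pdia4, a disulfide isomerase, rose 2.82-fold and 2.65-fold (edgeR adjusted p = 0.0069 and 0.00106). The count of 14 became 8 when Vehicle replicate 3 was left out, and 9 when either FGF19 replicate 1 or FGF19 replicate 2 was.

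Of 18 transcription factors known to act on liver serpin promoters, all were tested, with 2 called higher, 2 lower and a median of 0.03. Stat3, which acts downstream of interleukin-6, had a log2 fold change of 0.49 (edgeR adjusted p = 0.0172). Onecut1 (HNF6) and Nr1h4 (the bile acid receptor FXR) had -1.40 and -0.61 (edgeR adjusted p = 0.0159 and 0.0185). Stat3 had 88.7, 103 and 105 CPM in Vehicle and 147, 142 and 127 CPM in FGF19 mice, with no overlap. The calls of Stat3, Onecut1 and Nr1h4 were each lost when some single mice were left out (edgeR adjusted p up to 0.0865), that of Stat3 also with the replicate number as a block (edgeR adjusted p = 0.0595, with 1 gene of the list then called higher). With 1 mouse left out, between 0 and 2 genes of the list were called higher and between 0 and 5 lower, and the median was between -0.07 and 0.10.

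Markers of other liver and blood cells were measured beside these genes. Of 8 Kupffer cell and macrophage markers, 7 were among the genes listed, and Adgre1 was not measured because it was not listed under that name. Of the 7, 2, Marco and Cd68, were called higher (log2 fold change 2.29 and 0.66). Of the others, the Kupffer cell markers Vsig4, Clec4f and Cd5l had log2 fold changes of -0.54, -0.29 and -0.22 and Timd4 and Csf1r of 0.09 and 0.04, and none was called (edgeR adjusted p = 0.0755, 0.233, 0.332, 0.796 and 0.895). The summed level of the list was between 181 and 227 CPM in Vehicle and between 186 and 221 CPM in FGF19 mice. Of 9 neutrophil markers, 8 were among the genes listed, and Ly6g was not measured because it was not listed under that name. Of the 8, 1, S100a9, was tested and called higher. The summed level was between 0.810 and 1.79 CPM in Vehicle and between 3.91 and 5.05 CPM in FGF19 mice. The counts of S100a9 were 5, 4 and 21 in Vehicle and 36, 50 and 61 in FGF19 mice, and the other neutrophil markers measured were too low to be tested. Of these, S100a8 had 2, 8 and 8 counts in Vehicle and 18, 38 and 9 in FGF19 mice, Retnlg 3, 1 and 3 against 12, 10 and 5, and Mmp8 3, 3 and 1 against 8, 6 and 6. Every FGF19 mouse was above every Vehicle mouse for Retnlg and Mmp8, as for 14.5% of all genes tested, while S100a8 overlapped once scaled to CPM. The counts of Retnlg and Mmp8 were few, so their separation is a description only. Ngp had at most 6 counts in a library, and Mpo and Camp, which are transcribed mainly in neutrophil precursors, at most 1. Of 8 hepatocyte markers 1, Fgb, which is also an acute phase gene, was called higher, and their summed level was between 110273 and 114941 CPM in Vehicle and between 108445 and 120613 CPM in FGF19 mice. The part of these cell types in the Serpina3n, Serpina3m and Serpina7 changes was not tested.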

How the data were processed

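Paired-end RNA-seq (100 bp, HiSeq2000) of whole liver from 3 Vehicle and 3 FGF19 mice was used; groups and replicate numbers were taken from the sample labels, and each replicate was treated as a separate mouse. According to the submitters' processing notes, reads were trimmed with Trimmomatic 0.36 and aligned to mm9 with STAR 2.5.3a (the methods give another version of STAR). The deposited values are raw read counts per gene, which the authors made with featureCounts 1.5.2, together with the exon length of each gene. Per the file headers, the counting was unstranded, took each mate on its own and skipped multi-aligned reads. The authors' table of their own comparison (fold changes, mean expression, p-values) was not used.

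The analysis used edgeR 4.0.16 in R 4.3.3: filterByExpr with its defaults, TMM scaling, glmQLFit and glmQLFTest without covariates, and Benjamini-Hochberg adjustment over the 12559 genes tested of 23284. CPM values are TMM-scaled, and 95% intervals use the quantiles of the t distribution. Alternatives were DESeq2 1.42.0, library totals only, RLE factors, no filter, the likelihood ratio test, a minimum of 1 CPM in all libraries, limma-voom (limma 3.58.1), leaving out each library, a replicate block, p under 0.01, summed paralogs, and shares from counts divided by exon length or by unique positions. The tests were tested on simulated data. Shares were compared with exact permutation tests. Coding sequences of mm9 (GENCODE M1) were aligned with MAFFT 7.526, and windows of 100 bases were counted as unique where an exact match was found once in mm9 on either strand, without windows across exon junctions. The members and gene lists were chosen with earlier results of these data known. At most 4 called genes of a list were named, those without overlap between groups and with at least 1 CPM on average, in order of the size of the log2 fold change; Alb, Ttr, Nr3c1 and Elane were named for their roles. The values of some genes of these lists are not reported here. Markers of endothelial, stellate, bile duct, lymphoid, erythroid, adipose and pancreatic acinar cells were also measured.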

Additional observations from a re-analysis of the deposited data

How the results depend on the processing

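Serpina3m, Serpina3n and Serpina7 were called higher in 14 of 14 alternatives, with log2 fold changes between 0.82 and 0.99, 2.24 and 2.59, and 2.90 and 3.94, and the Serpina1 paralogs, Serpina3k and both sums were called in 0 of 14. The number of the 10 genes called lower was 1, Serpina6, in place of 0 with DESeq2, with no filter on low counts, with the likelihood ratio test and at p under 0.01, and between 0 and 1 with 1 mouse left out. The log2 fold change of Serpina3k was -0.00136 with DESeq2, -0.00496 with library totals only, -0.00136 with RLE factors, -0.00175 with no filter, -0.00976 with limma-voom and -0.0101 with the replicate block, and between -0.15 and 0.10 with 1 mouse left out. That of Serpina1e was between -0.486 and 0.0501 and that of Nr3c1 between -0.237 and 0.0184 with 1 mouse left out; none of these 3 genes was called in any of these settings, and the cause of the sign changes was not tested. The shift in share was -14.6 percentage points for Serpina3k and 12.8 for Serpina3n with counts divided by exon length, and -13.6 and 11.7 with counts divided by uniquely alignable positions, both of which weight Serpina3n less relative to Serpina3k.

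Over all genes, the counts called higher and lower, 573 and 357, were 642 and 519 with DESeq2, 780 and 579 with the likelihood ratio test, 370 and 164 with the replicate block, 236 and 107 without Vehicle replicate 3, 276 and 91 without FGF19 replicate 2 and 1016 and 927 without FGF19 replicate 3. Same-numbered mice did not deviate together (correlations of -0.05, -0.23 and -0.21), so the numbers were not taken as pairs; with the replicate block 3 of the 10 genes were called higher and 0 lower. With 3 mice per group the smallest exact permutation p is 0.1, so no share could pass 0.05.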

Other observations

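Lists of other cell types gave the following summed levels. Endothelial markers were between 204 and 220 CPM in Vehicle and between 196 and 215 CPM in FGF19 mice, stellate markers between 201 and 275 and between 195 and 242 CPM, and cholangiocyte markers between 71.8 and 89.0 and between 55.7 and 86.0 CPM, with 0 genes called in these 3 lists by edgeR. Lymphocyte markers were between 3.05 and 6.30 CPM in Vehicle and between 3.03 and 5.10 CPM in FGF19 mice, erythroid markers between 57.3 and 78.8 and between 43.6 and 57.6 CPM, and pancreatic acinar markers between 5.67 and 7.04 and between 5.57 and 5.70 CPM, also with 0 called. The erythroid sum was nearly all Alas2, with Hbb-b1 and Hba-a1 at 0 counts in each library, and the acinar sum nearly all Cela1, with Prss1 and Ctrb1 at 0, so these are levels of single genes. Adipocyte markers were between 9.03 and 12.8 CPM in Vehicle and between 14.2 and 15.9 CPM in FGF19 mice, with Fabp4 called higher (log2 fold change 0.51). Fabp4 made up nearly all of this sum, Cfd had a log2 fold change of -0.65 and was not called (edgeR adjusted p = 0.713), and Adipoq and Plin1 were at or near 0.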
